A study of Mus musculus with 2 samples.

Results

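Conventional CD4+ T cells (Tconv cells) of expanded clones are Foxp3-negative helper T cells that share their T cell receptor (TCR) with at least one other such cell. The members were chosen by measured values of the cells themselves: they had at least 1 UMI of the CD3 genes Cd3d, Cd3e or Cd3g, no UMI of the regulatory T (Treg) cell factor Foxp3, no UMI of Cd8a or Cd8b1, and a clonotype, as called by Cell Ranger, that was held by 2 or more Tconv cells. The sizes of the clones are therefore given as a description. The rule found 183 cells in 73 clones, out of 2524 Tconv cells with a clonotype, 4303 Tconv cells, 9078 quality-filtered cells and 14035 barcodes. The other 2341 Tconv cells with a clonotype held it alone and are called single Tconv cells. The cells came from B16 melanoma tumors and from tumors of B16-IL33, a B16 line engineered to secrete the alarmin IL-33, grown in C57BL/6 mice. T cells positive for TCR-β were collected on day 9 after intradermal inoculation, labelled with hashtag antibodies for the 2 kinds of tumor, and pooled. The pool was sequenced as 1 gene expression, 1 hashtag and 1 TCR library, so that it is 1 sample. No mouse could be told from another, no test across animals was possible, and the intervals below cover counting error only.

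A TCR is built in each developing T cell by joining V, D and J gene segments, and the joint, the complementarity-determining region 3 (CDR3), differs from cell to cell. Cells that share both the alpha and the beta CDR3 at the nucleotide level are taken as the progeny of a common ancestor that divided after the receptor was made. In tumors, CD4+ T cells that have met their antigen lose receptors for lymph node entry such as CCR7, gain receptors for inflamed tissue such as CXCR3 and CXCR6, and take on helper programs, among them Th1 (T-bet, interferon-γ) and Th17 (interleukin-17).

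The receptors on which the results turn are shown first. In each CDR3 of the TCR beta chain (TRB, 5′ to 3′, from the conserved cysteine codon), capitals mark the bases that lie between the stretch shared with at least 50% of clonotypes of the same V gene and the stretch shared with at least 50% of those of the same J gene. The receptors shown are beta chains held by a pair of large clones, the beta chain of another clone with Il17a UMIs (clonotype68), and that of the largest clone with cells of other lineages (clonotype6). They are rearranged sequences read from the assembled contigs, and have no single position in the genome.
clonotype9 and clonotype33, TRBV12-2+TRBV13-2 with TRBJ1-3: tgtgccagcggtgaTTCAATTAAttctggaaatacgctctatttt
clonotype15 and clonotype30, TRBV12-1 with TRBJ1-1: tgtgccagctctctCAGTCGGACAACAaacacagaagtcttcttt
clonotype14 and clonotype50, TRBV16 with TRBJ2-7: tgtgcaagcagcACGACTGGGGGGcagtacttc
clonotype68, TRBV2 with TRBJ1-1: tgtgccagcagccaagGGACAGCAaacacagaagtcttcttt
clonotype6, TRBV13-1 with TRBJ1-1: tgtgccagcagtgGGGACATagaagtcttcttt
The CDR3s of these 8 clones were 33 to 45 bases long. The members' 63 distinct beta chains had a median of 42 bases (SD 4.01), and those of 1963 single Tconv cells with 1 beta chain also had a median of 42 bases (SD 4.19).

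Expansion was shallow. Of the 73 clones, 52 held 2 Tconv cells, 12 held 3, 5 held 4 and 2 held 5, and the 2 largest, clonotype14 and clonotype9, held 6 and 7. Members made up 7.25% of Tconv cells with a clonotype (95% interval 6.27 to 8.33, exact Clopper-Pearson). In the same library, 98 of 1697 Treg cells (5.77%, 4.71 to 6.99) and 193 of 929 CD8+ cells (20.8%, 18.2 to 23.5) belonged to expanded clones of their lineage. The share depends on the number of cells sampled, and the exact expectation for a draw of 929 cells was 3.77% for Tconv cells and 3.42% for Treg cells. At equal numbers, the share was thus highest in CD8+ cells, with Tconv and Treg cells close to each other.

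**Figure D1:**
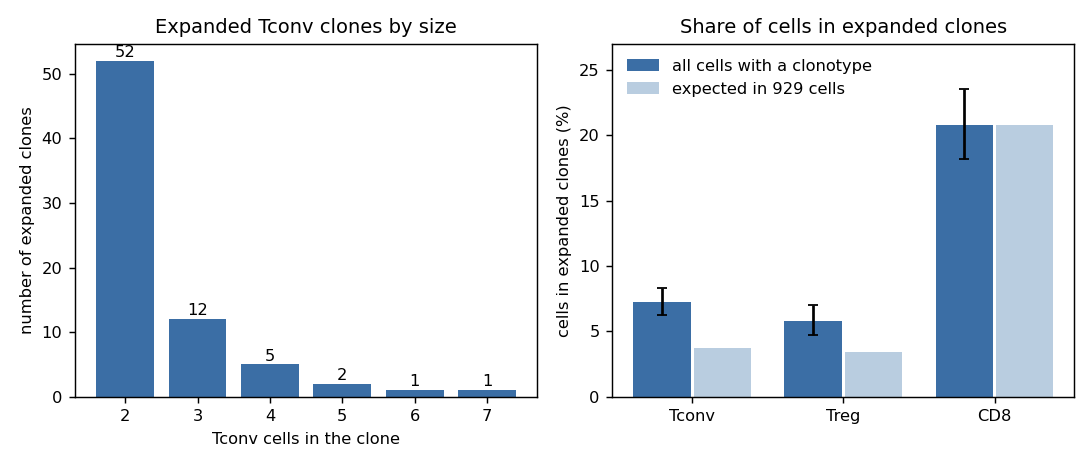
The left panel plots the number of expanded Tconv clones against the number of Tconv cells in the clone. The right panel plots the percent of cells with a clonotype that belong to expanded clones of their lineage, with bars for the 95% Clopper-Pearson interval, and beside it the share expected in 929 cells of that lineage. Most Tconv clones (52 of 73) held 2 cells, and the CD8 bar, at 20.8%, lies above the other two.

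The share depended on how clones were defined. An alpha and a beta chain were recovered in 127 members, only a beta chain in 50 (27.3%) and only an alpha chain in 6, and Cell Ranger gives cells with a missing chain a clonotype of their own. Among the expanded clones, 7 beta CDR3s were each held by 2 clonotypes (14 clones), and in 5 of these pairs 1 clonotype had no alpha chain. Another 26 single Tconv cells carried the beta CDR3 of an expanded clone. When clones were formed by the beta chain alone with its V and J genes, 13.1% of Tconv cells (11.8 to 14.6) belonged to expanded clones, and with cells that had both chains only, 8.89% (7.47 to 10.5). No member had more than 1 productive beta chain (0 of 183, which allows up to 1.64%), whereas 175 single Tconv cells (7.48%) had at least 2. Members had to share their clonotype, and so their set of chains, with another cell. The rule itself therefore favored cells without a second beta chain, and this difference is no result about the members. The V gene of the contig was also the most frequent Trbv gene of the expression library in 163 of 170 members (95.9%) and in 1847 of 1911 single Tconv cells (96.7%), a close match between the libraries in both groups.

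The Cd4 label held for the members as a group. Cd4 (ENSMUSG00000023274), the coreceptor for class II MHC, was at 248 CPM (counts per 1000000 UMIs of the summed cells, exact Poisson interval 208 to 294) in members and at 254 CPM (242 to 266) in single Tconv cells, against 8.73 CPM (3.77 to 17.2) in CD8+ cells of expanded clones. A Cd4 UMI was found in 91 members (49.7%). After each cell was thinned to 1500 UMIs, which left out 16 members, 267 single Tconv cells and 120 CD8+ cells, the share was 32.9% (25.9 to 40.6) in members, 30.4% in single Tconv cells and 6.46% in all CD8+ cells, which should lack it (unthinned 46.3% and 13.9%; median depths 2498, 2581 and 3311 UMIs). Of the 73 clones, 55 had a Cd4 UMI in at least 1 cell and 18 had none. Clonotypes were not always pure: 5 clones also held CD8+ cells, 3 also held Treg cells, and 8 clones with 22 members held one of these or a cell with both Foxp3 and Cd8 UMIs. By the beta CDR3 in place of the clonotype, 8 clones had CD8+ cells and 8 had Treg cells. Since lineage rested on the absence of Foxp3 and Cd8 UMIs, a cell of another lineage whose marker was missed is counted as Tconv. The largest of the mixed clones, clonotype6, had 5 Tconv, 2 CD8+ and 1 Treg cell, and its Tconv cells carried 6 Cd4 UMIs.

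For the comparison across genes, the UMIs of the 183 members (535894) and of the 2341 single Tconv cells (6851926) were summed, and genes were ranked if at least 20 UMIs were expected in the members at the pooled rate. TCR segment genes and the genes of the rule were left out, and 3174 genes remained. Of these, 12 were at least 2-fold higher in members (0.378%) and 47 at least 2-fold lower (1.48%), and the median ratio was 1.05. At a fold of 1.5, the numbers were 130 (4.1%) and 149 (4.69%). Median depth was close (2498 and 2581 UMIs, 1091 and 1045 genes per cell). With 1 pool there is no replicate check on any of these differences.

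Genes of naive cells and lymphoid homing were mostly lower in members. Of 14 genes in the list, 13 could be ranked, 6 of them at a ratio of 0.5 or less and none at 1.5 or more, with a median of 0.696. Igfbp4 (ENSMUSG00000017493, chromosome 11, 99041244 to 99054392 in GENCODE vM21 on GRCm38), a binding protein of insulin-like growth factors that is high in naive T cells, was at 7.46 CPM (2.03 to 19.1) in members and 153 CPM in single Tconv cells, a ratio of 0.0487 (0.0132 to 0.125). Its 4 UMIs came from a single member, against 326 single Tconv cells with a UMI.
Ccr7, the receptor for lymph node entry, was at 31.7 CPM (18.5 to 50.8) against 144, a ratio of 0.220. Dapl1 stood at 0.170, the chromatin organizer Satb1 at 0.425 and the transcription factor Lef1 at 0.487. By contrast Tcf7, the partner of Lef1, was at 243 CPM against 282 (ratio 0.860, 0.715 to 1.03; 1.46 without cells that had a UMI of 5 genes of the list), and Il7r, the receptor for the survival factor interleukin-7, at 284 against 318 (0.893, 0.752 to 1.05). The list thus did not move as a block, and Igfbp4 and Ccr7 differed by far more than Tcf7, Il7r, Ets1 (1.00) or Txnip (1.05). In cells thinned to 1500 UMIs, 4.19% of members and 14.9% of single Tconv cells had a Ccr7 UMI (8.35% of all CD8+ cells).

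**Figure D2:**
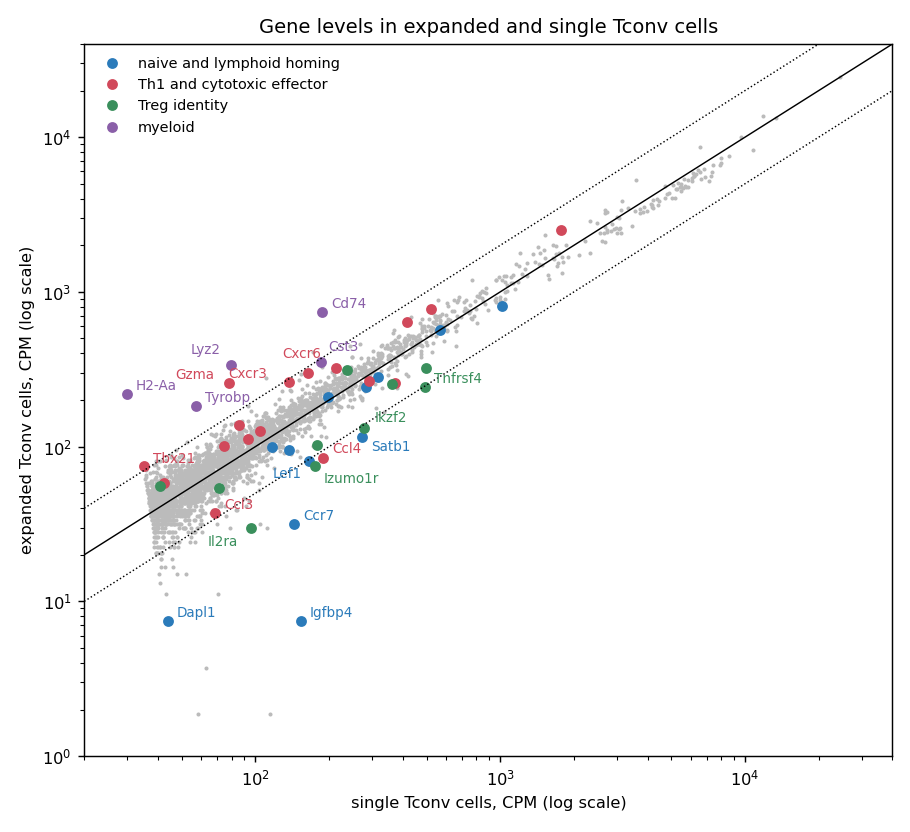
Each point is a ranked gene (3174 in all), with its CPM in single Tconv cells on the x axis and in expanded Tconv cells on the y axis, both on log scales. The solid line marks equal levels and the dotted lines a 2-fold difference, and colors mark 4 gene lists. Igfbp4, Dapl1 and Ccr7 lie below the lower dotted line, and H2-Aa, Lyz2, Cd74, Tyrobp, Gzma and Tbx21 above the upper one.

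The Th1 and cytotoxic effector list differed in both directions. Of 24 genes, 17 could be ranked, of which 7 were at 1.5 or more, 2 at 2 or more, 2 at 1/1.5 or less and 1 at 0.5 or less, with a median of 1.43. Tbx21, which encodes the Th1 factor T-bet (chromosome 11, 97098071 to 97115331), was at 74.6 CPM (53.3 to 102) in members against 35.0, a ratio of 2.13 (1.49 to 2.99), with its UMIs spread over 26 clones. The Th1 chemokine receptor gene Cxcr3 (chromosome X, 101731535 to 101734269) was at 261 CPM (220 to 308) against 138, a ratio of 1.90 (1.58 to 2.27) over 52 clones. Cxcr6, a receptor for a chemokine of tumor tissue, was at 300.4 CPM (256 to 351) against 164, a ratio of 1.83 (1.54 to 2.16) over 43 clones.
Il18r1 (1.61), Nkg7, a protein of cytotoxic granules (1.53, 1.36 to 1.71), the regulators Bhlhe40 (1.51) and Id2 (1.48), and Ccl5, a chemokine of effector and memory T cells (2514 CPM against 1763, ratio 1.43), were higher as well. Ifng, which encodes interferon-γ, was at 112 CPM (85.4 to 144) against 93.4, a ratio of 1.20 (0.904 to 1.56). In cells thinned to 1500 UMIs, an Ifng UMI was found in 15.6% of members (10.4 to 21.97) and 7.76% of single Tconv cells (6.65 to 8.999), with 19.9% in all CD8+ cells (unthinned 16.9%, 11.6% and 31.4%). Nkg7 gave 45.5% of members (37.8 to 53.4) and 28.7% of single Tconv cells (26.8 to 30.7). For Ccl5 the intervals overlapped, at 50.9% (43.1 to 58.7) and 43.0% (40.8 to 45.1). Genes of the list that were too low to rank went in both directions. Gzmk, a granzyme of effector memory cells, had 47 UMIs over 18 clones and a ratio of 2.76 (1.97 to 3.79), and Fasl was at 1.77. Gzmc was at 0.0735 (0.00185 to 0.415) and Xcl1 at 0.205 (0.0553 to 0.530), on 1 and 4 UMIs in members. For Prf1, Eomes and Il12rb2 the interval held 1.
Some ranked effector genes also had ratios below 1. Gzmb, which encodes granzyme B, was at 258 CPM (216 to 304) against 372 (ratio 0.692, 0.579 to 0.822), and the chemokine genes Ccl4 and Ccl3 had ratios of 0.446 and 0.545. The thinned shares with a Gzmb UMI overlapped, at 14.97% of members (9.93 to 21.3) and 18.3% of single Tconv cells (16.7 to 20.1). With a mitochondrial limit of 10% in place of 5%, Ccl4 was at 1.18, and without cells that had Ikzf2 or Il2ra UMIs Gzmb was at 1.85. In CD8+ cells of expanded clones, Gzmb was at 1746 CPM, Ccl5 at 11913 CPM and Nkg7 at 2550 CPM, so that the members lay far below them for each.

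Gzma (chromosome 13, 113093825 to 113100981), which encodes a granule tryptase, had the highest ratio among the ranked genes of that list, 3.29 (2.71 to 3.98), and most of its UMIs came from 1 cell. Of its 138 UMIs in members, 82 came from 1 of the 2 cells of clonotype115, whose other cell had none, and 59 of the 73 clones had no Gzma UMI. Clonotype115 had 0 Cd4 UMIs among its 7460 UMIs, and 1 CD8+ cell carried its beta CDR3. Among clones of 3 or more cells, Gzma was at 56.1 CPM (30.7 to 94.1), with the interval around the 78.2 CPM of single Tconv cells.

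Surface and cytoskeletal genes of memory cells were higher more evenly. The residency and homing list had 16 genes, of which Itgae, Itga1 and Zfp683 were too low to rank. Of the 13 ranked genes of the residency and homing list, 12 had a ratio above 1, 6 were at 1.5 or more and none at 1/1.5 or less, with a median of 1.38, whereas 60% of all ranked genes were above 1 and 40% below 1. Itgb1, the integrin beta-1 chain, was at 457 CPM (402 to 518) against 268, a ratio of 1.71 (1.49 to 1.95) over 60 clones. S100a4, a calcium-binding protein of memory cells, was at 448 CPM against 244 (1.84, 1.60 to 2.10) over 58 clones, Crip1 at a ratio of 1.54, Vim at 1.55 and Cd44, the antigen-experience marker, at 1.503. Without cells of 3 or more myeloid UMIs, an alternative described below, Vim was at 1.34, Cd44 at 1.38 and Anxa2 at 0.944. In that setting S100a4 was at 1.87, Itgb1 at 1.73 and Crip1 at 1.57. In thinned cells, 49.7% of members (41.9 to 57.5) and 23.9% of single Tconv cells (22.1 to 25.8) had an Itgb1 UMI, against 24.9% of all CD8+ cells. Cxcr6 gave 32.9% and 16.1%, with 27.9% in all CD8+ cells, at the median depths given above.

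**Figure D3:**
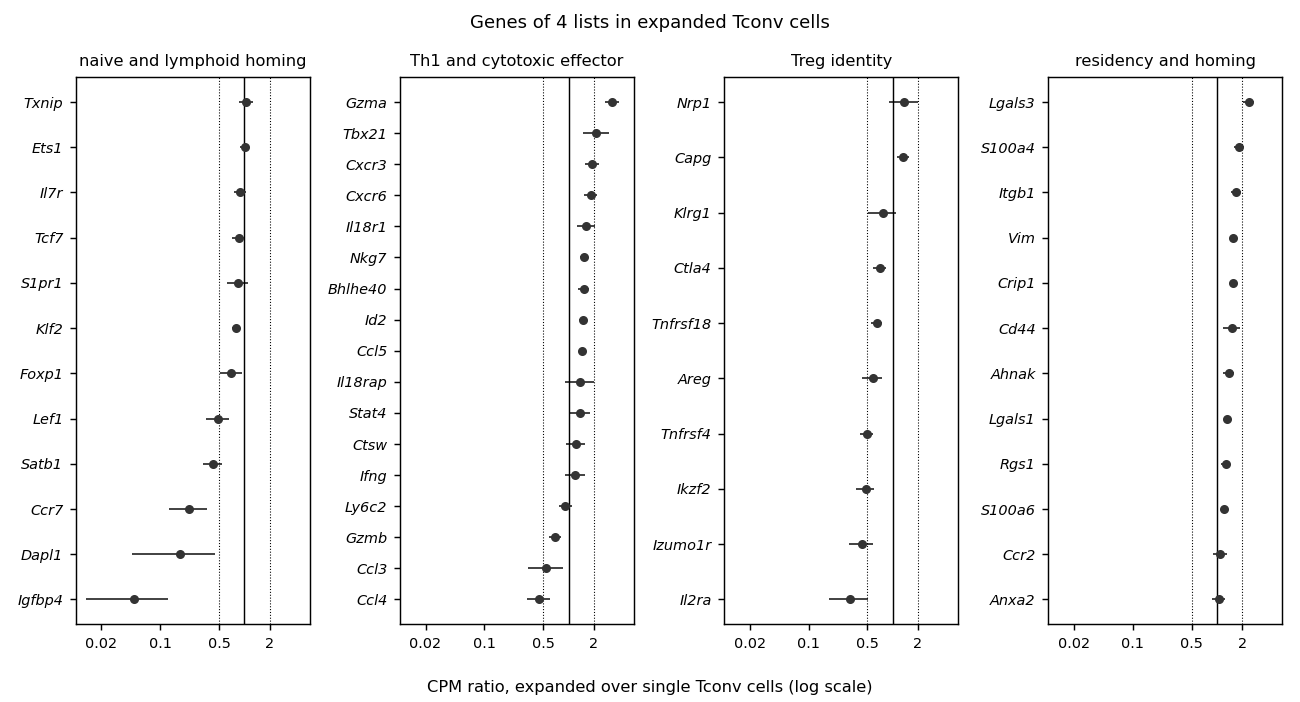
Points are the CPM ratios of expanded over single Tconv cells for the ranked genes of 4 lists, on a log scale, with bars for the exact conditional 95% interval. The solid line marks 1 and the dotted lines 0.5 and 2. In the naive list the points run from Igfbp4 at 0.0487 to Txnip at 1.05, and the 12 residency genes drawn lie above 1, while 1 ranked gene of each of these 2 lists is not drawn.

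Costimulatory receptors and their ligands went in different directions. Cd40lg, the helper signal to B cells and dendritic cells, was at 203 CPM (167 to 245) against 125, a ratio of 1.63 (1.32 to 1.99) over 44 clones, and 8.73 CPM in CD8+ cells of expanded clones. In thinned cells, 19.2% of members (13.5 to 25.96) and 15.7% of single Tconv cells (14.1 to 17.3) had a Cd40lg UMI, with overlapping intervals. The receptor genes Tnfrsf4 (OX40), Tnfrsf9 (4-1BB) and Tnfrsf18 (GITR) were lower in CPM, at ratios of 0.494, 0.502 and 0.645, and so was the growth regulator Myc, at 0.320 (0.127 to 0.667). The thinned shares with a Tnfrsf4 UMI overlapped, at 24.6% of members (18.2 to 31.8) and 28.0% of single Tconv cells (26.1 to 30.0). Of the early genes of TCR signaling, Egr1 was at 1.30 (1.01 to 1.67), Nr4a1 at 1.07 (0.859 to 1.31), Nr4a2 at 1.00 (0.650 to 1.48) and Cd69 at 1.12 (0.992 to 1.27). Over the list of 25 genes, 17 were ranked, 2 were at 1.5 or more and 4 at 1/1.5 or less, with a median of 1.07.
Inhibitory receptors did not form a block either. Pdcd1, which encodes PD-1, was at 112 CPM (85.4 to 144) against 71.4, a ratio of 1.57 (1.18 to 2.05). Of its 60 UMIs in members, 20% came from 1 cell and 21.7% from clonotype308, and 30 members had a UMI. The share of cells with a Pdcd1 UMI was 16.4% in members and 14.0% in single Tconv cells. In thinned cells the shares overlapped, at 10.2% (6.04 to 15.8) and 8.39% (7.23 to 9.67). Lag3 was at 31.7 CPM against 104, a ratio of 0.304 (0.176 to 0.490), and Ctla4 at 0.702 (0.586 to 0.835), or 1.16 without cells that had Ikzf2 or Il2ra UMIs. The thinned shares with a Lag3 UMI overlapped, at 4.79% of members (2.09 to 9.22) and 7.62% of single Tconv cells (6.51 to 8.84). The median of the 7 ranked genes was 0.759, and Havcr2, which encodes TIM-3, had 5 UMIs in members.
Slamf1, a receptor of T cell costimulation, was at 106 CPM (80.6 to 138) against 52.7 (ratio 2.02, 1.499 to 2.68) over 34 clones, and Ctla2a, a cathepsin inhibitor-like protein, at 295 CPM against 154 (1.91). Of the follicular helper list, 5 of 14 genes were ranked, with 0 at 1.5 or more and a median of 0.874, and Cxcr5 and Bcl6, its defining receptor and factor, had 2 UMIs each in members.

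Genes of the Treg program were mostly lower in members, although both groups had no Foxp3 UMI by rule. Under the rule, a Treg cell whose Foxp3 was missed counts as single unless another cell counted as Tconv holds its clonotype. The rule itself could therefore lower these genes in members, and its part in the difference was not tested. Of 10 ranked genes of the Treg identity list, 6 were at 1/1.5 or less and 4 at 0.5 or less, with a median of 0.610. The 2 above 1 were Capg at 1.31 and Nrp1, a receptor gene of the list, at 1.37. Il2ra, the high-affinity interleukin-2 receptor chain, was at 29.9 CPM (17.1 to 48.5) against 96.2 (0.310), Ikzf2, which encodes Helios, at 132 against 278 (0.477), and Izumo1r at 74.6 against 175 (0.427). A UMI of Ikzf2 or Il2ra was present in 43 members (23.5%) and in 909 single Tconv cells (38.8%). A UMI of at least 1 of 5 genes of the naive list, among them Ccr7, Lef1, Igfbp4 and Dapl1, was present in 54 members (29.5%) and 1169 single Tconv cells (49.9%). The ratios were computed again without such cells, as alternatives chosen after seeing the data. Without cells that had Ikzf2 or Il2ra, Lag3 was at a ratio of 0.626, Tnfrsf4 at 0.763, Tnfrsf9 at 0.748 and Gzmb at 1.85, while Cxcr3 (1.98), Cxcr6 (1.85), Nkg7 (1.90), Satb1 (0.377) and Ccr7 (0.207) stayed on their side of 1. In the same setting H2-Aa was at 0.194, Cd74 at 0.370 and Tyrobp at 0.821. Without cells that had a naive gene, Cxcr3 was at 1.69, Cxcr6 at 1.40, Itgb1 at 1.36, Nkg7 at 1.33 and Ccl5 at 1.06. Of the residency list, Ahnak was then at 1.01, Anxa2 at 1.02, Lgals1 and S100a6 at 1.03, and Rgs1 at 1.05. Ccr2 was at 0.746, Vim at 1.19, Crip1 at 1.27, S100a4 and Cd44 at 1.34, and Lgals3 at 2.01.

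The 3 highest ratios of all ranked genes were those of H2-Aa, Lyz2 and Cd74, which myeloid cells express. H2-Aa, a class II MHC chain, was at 220.2 CPM (182 to 264) against 29.8 (ratio 7.40, 5.84 to 9.32), the lysozyme gene Lyz2 at 336 CPM against 79.2 (4.24), Cd74, the class II invariant chain, at 743 against 187 (3.97), and the signaling adaptor Tyrobp at 183 against 57.1 (3.205). Of the 12 genes of the myeloid list, 5 were ranked and 4 of them were at 2 or more, and the list summed to 2247 CPM in members against 613. These UMIs came from few members. Over 10 myeloid genes (Lyz2, Csf1r, C1qa, C1qb, H2-Aa, H2-Ab1, Tyrobp, Cd68, Apoe and Itgam), 155 of 183 members had no UMI, and 7 members of 7 clones had 3 or more, up to 269 in 1 cell of clonotype368 and 179 in 1 cell of clonotype15. Among single Tconv cells, 48 had 3 or more, up to 205. The 2 clones supplied 67.2% of the members' Lyz2 UMIs (clonotype368) and 61.9% of their H2-Aa UMIs (clonotype15). All 10 genes had a higher CPM in members, from Itgam at 5.60 against 2.77 CPM to Lyz2 at 336 against 79.2. Without all cells of 3 or more such UMIs, an alternative chosen after seeing the data, H2-Aa was at a ratio of 1.08, Lyz2 at 1.46, Cd74 at 0.626, Fcer1g at 0.157 and Cebpb at 0.875, and 7 genes in place of 12 were at least 2-fold higher. In that setting Tbx21 (2.29), Cxcr6 (1.94), Cxcr3 (1.92), Itgb1 (1.73), Nkg7 (1.60) and Ccl5 (1.42) were close to their values with all cells. Ifitm3 (2.51), Lgals3 (2.38) and Cst3 (1.88), which T cells and myeloid cells both express, were at 1.57, 1.78 and 1.36 without those cells. Over cells with both an alpha and a beta chain, Lyz2 was at 0.590.

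The rule set its threshold at 2 cells. Clones of 2 cells (104 members) lie just inside it and single Tconv cells just outside. Cxcr6 was at 164 CPM in single Tconv cells, 244 (191 to 309) in clones of 2 and 365 (294 to 448) in clones of 3 or more. Cd40lg was at 125, 164 (121 to 218) and 248 (191 to 319), and Itgb1 at 268, 416 (344 to 497) and 505 (421 to 601). Other genes showed no further step in clones of 3 or more. Cxcr3 was at 138, 283 (225 to 352) and 236 (180 to 305), and Tbx21 at 35.0, 76.8 (48.1 to 116) and 72.1 (42.8 to 114). Satb1 was at 272, 119 (82.2 to 166) and 112 (74.6 to 162). Ccr7 was at 144, 52.4 (29.3 to 86.4) and 8.02 (0.971 to 29.0). Gzmb was at 372, 395 (325 to 474) and 100.2 (64.8 to 148), but 48 of the 113 UMIs in clones of 2 came from clonotype151, without which these clones were at 234 CPM (181 to 299). Ikzf2 was at 278, 213 (163 to 274) and 40.1 (19.2 to 73.7), and Areg, a growth factor made by Treg and type 2 cells, at 178, 168 (124 to 222) and 28.1 (11.3 to 57.8). Of the 48 Areg UMIs in clones of 2, 35 came from clonotype41, which also held 2 Treg cells, and without it these clones were at 46.7 CPM (24.9 to 79.9). The intervals of clones of 2 and of 3 or more cells overlapped for Cxcr6, Cd40lg, Itgb1, Cxcr3, Tbx21 and Satb1 and did not for Ccr7, Gzmb, Ikzf2 and Areg. Without the clone with most UMIs in clones of 2, chosen after seeing the data, they still did not for Gzmb and Ikzf2, and they overlapped for Areg and for Ccr7 (39.0 CPM, 19.5 to 69.7, without clonotype66).

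Among the clones themselves, levels varied over a wide range. In the 21 clones of 3 or more cells, Ccl5 ran from 153 CPM (clonotype78) to 9564 CPM (clonotype30) with a median of 1773, and every one of them had a UMI of it. Nkg7 ran from 0 in 4 clones to 1904 CPM in clonotype4, with a median of 448. Clonotype4 also held 1 CD8+ cell, and its 4 Tconv cells carried 1 Cd4 UMI. Itgb1 was found in all 21 (124 to 1055 CPM), whereas Gzmb was at 0 in 12, Ifng in 11, Pdcd1 in 11 and Tbx21 in 11. Clones hold few UMIs of such genes, so that a 0 in a clone is a limit set by depth, as given below for Nkg7.
The largest clone, clonotype9, had both Nkg7 and Ccl5. Its 7 cells had 2, 5, 2, 7, 1, 4 and 1 Nkg7 UMIs and 17, 0, 19, 22, 1, 31 and 2 Ccl5 UMIs, so that every cell had Nkg7 and 6 of 7 had Ccl5. Clonotype33, which had the same beta CDR3 and no alpha chain, was at 1806 CPM of Nkg7 (1088 to 2821) beside 1169 (733 to 1770) in clonotype9, and at 6655 CPM of Ccl5 (5188 to 8409) beside 4888 (3941 to 5995). Both also had Gzma and Gzmb UMIs (4 and 9 in clonotype33, 2 and 5 in clonotype9). Cd4 had 2 UMIs in clonotype9 and 1 in clonotype33, and no CD8+ cell carried their beta CDR3. Clonotype15 and clonotype30, another pair with 1 beta CDR3, had Ccl5 at 6171 (5133 to 7358) and 9564 CPM (7671 to 11783) with Nkg7 at 448 and 326 CPM and no Gzma or Gzmb UMI. In clonotype30, 85 of the 88 Ccl5 UMIs came from 1 of its 3 cells. The 2 pairs were picked after their values were seen.

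Clonotype14, the second largest clone, lacked Nkg7. None of its 6 cells had an Nkg7 UMI (0 of 26905 UMIs, which allows up to 112 CPM at 3 counts), and they had 1, 3, 0, 0, 0 and 1 Ccl5 UMIs (186 CPM in all), 8 Cd40lg UMIs, 11 of Tmem176a and 12 of Tmem176b, a pair of genes expressed in Th17 cells. Il17a (chromosome 1, 20730905 to 20734496), the defining Th17 cytokine, had 7 UMIs in 2 of its cells. Clonotype50, with the same beta CDR3 and no alpha chain, had 0 Nkg7 UMIs as well, 3 of Ccl5, 8 of Cd40lg, 17 of Il17a in 1 of its 3 cells, 4 of Il17f and 9 of Rora. Clonotype68, with another beta chain and an alpha chain of its own (TRAV7-4 with TRAJ37), had 0 Nkg7, 3 Ccl5, 7 Cd40lg, 24 Il17a and 3 Ccr6 UMIs. In clonotype68, 1 of 3 cells held 23 of the Il17a UMIs and all 7 Cd40lg UMIs.
These 3 clones were singled out after their values were seen. Their 12 cells held 48 of the members' 52 Il17a UMIs, all 6 of Il17f, all 5 of Il22 and 19 of 29 of Tmem176b. Over all members, Il17a was at 97.0 CPM (72.5 to 127) in 6 cells of 4 clones, and over single Tconv cells at 14.4 CPM (11.7 to 17.6) in 15 cells, 1 of which held 36 of the 99 UMIs. The other 171 members were at 8.23 CPM (2.24 to 21.1), an interval that held the level of single Tconv cells. The Th17 list thus differed through a few clones, and most Il17a UMIs lay in 1 cell each of clonotype50 and clonotype68. By contrast, the one ranked gene of the list, Rora, was at 228 CPM against 140 (1.63, 1.34 to 1.97) over 45 clones.
Of the 11 genes of the type 2 list, 3 were ranked and 2 were at 1/1.5 or less, with a median of 0.575, and its cytokines were near the detection limit. Il4 had 2 UMIs in members and 104 in single Tconv cells, and Il5 and Il13 had 0 in members. Gata3, the Th2 factor, was at 123 CPM against 119 (ratio 1.03), and Il1rl1, the receptor for IL-33, had 12 UMIs in 7 clones (ratio 0.685, 0.349 to 1.22).

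**Figure D4:**
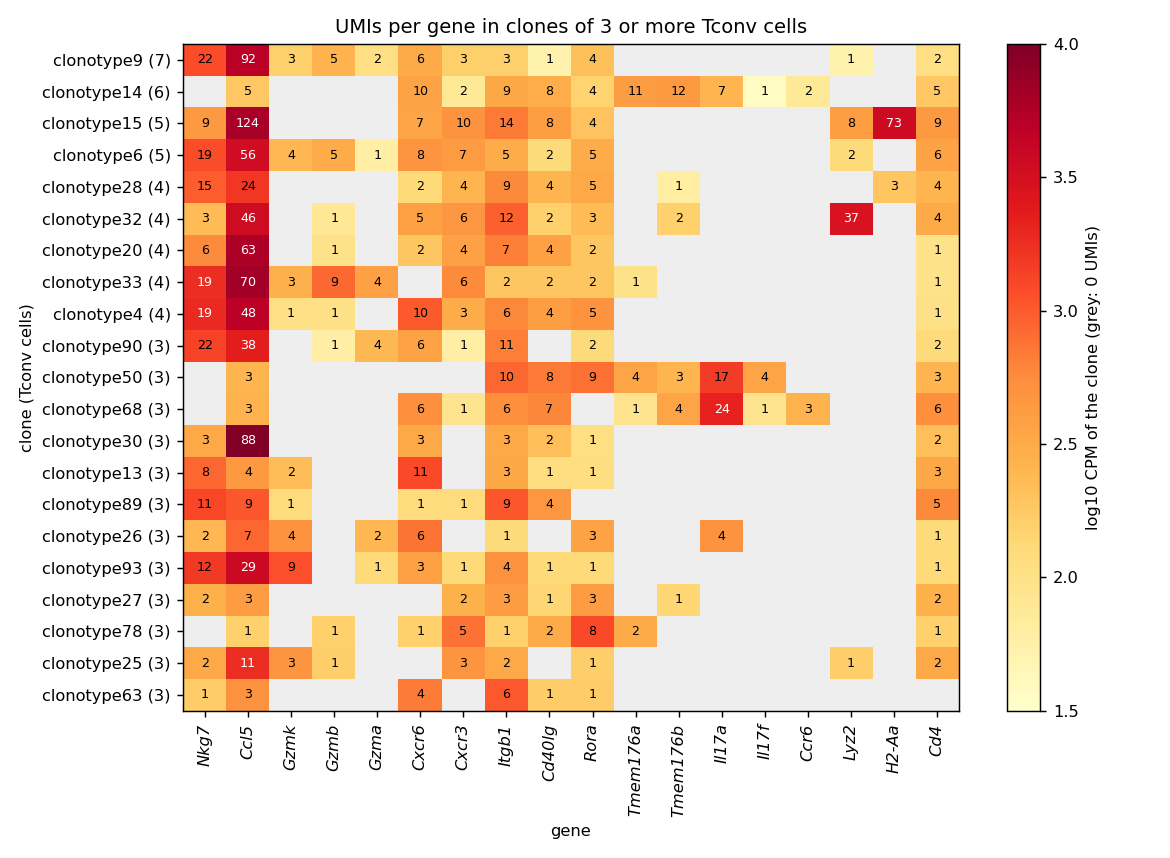
Rows are the 21 clones of 3 or more Tconv cells, with their number of cells, and columns are genes. Numbers are UMIs summed over the clone, color is the log10 CPM of the clone, and grey fields have 0 UMIs. Nkg7 and Ccl5 are both high in clonotype9, clonotype33 and clonotype4, while clonotype14, clonotype50 and clonotype68 have no Nkg7 and hold most Il17a UMIs.

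Of the other beta chains held by 2 clonotypes, clonotype25 and clonotype200 had Nkg7 at 322 and 592 CPM, on 2 UMIs each. Clonotype27 and clonotype97 had 2 and 0 Nkg7 UMIs. Clonotype32 and clonotype85 had Ccl5 at 3547 (2597 to 4731) and 116 CPM (2.93 to 645), but 40 of the 46 UMIs of clonotype32 came from 1 of its 4 cells, without which it was at 544 CPM (200 to 1185). Clonotype85 had an alpha chain and clonotype32 had none recovered.

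The 26 single Tconv cells that carried the beta CDR3 of an expanded clone were not members under the rule, and 14 of them had an alpha chain. In these cells (64700 UMIs), Satb1 was at 77.3 CPM (25.1 to 180), Tnfrsf4 at 216 (118 to 363) and Tnfrsf9 at 92.7 (34.0 to 202), against 274, 497 and 337 in the other 2315 single Tconv cells, so that for these 3 genes the interval lay below the level of the other single cells. S100a4 was at 618 (442 to 842) and Cd40lg at 263 (153 to 421), against 240 and 123, above it. For Cxcr6 (216, 118 to 363, against 164), Itgb1 (325, 201 to 496, against 267) and Cxcr3 (155, 74.1 to 284, against 138), the interval held the level of the other single cells. The Lyz2 level of 788 CPM in these cells came from 49 UMIs in 1 cell and 2 in another. These values and those of the members were set against the same single Tconv cells, and are not independent of each other.

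**Figure D5:**
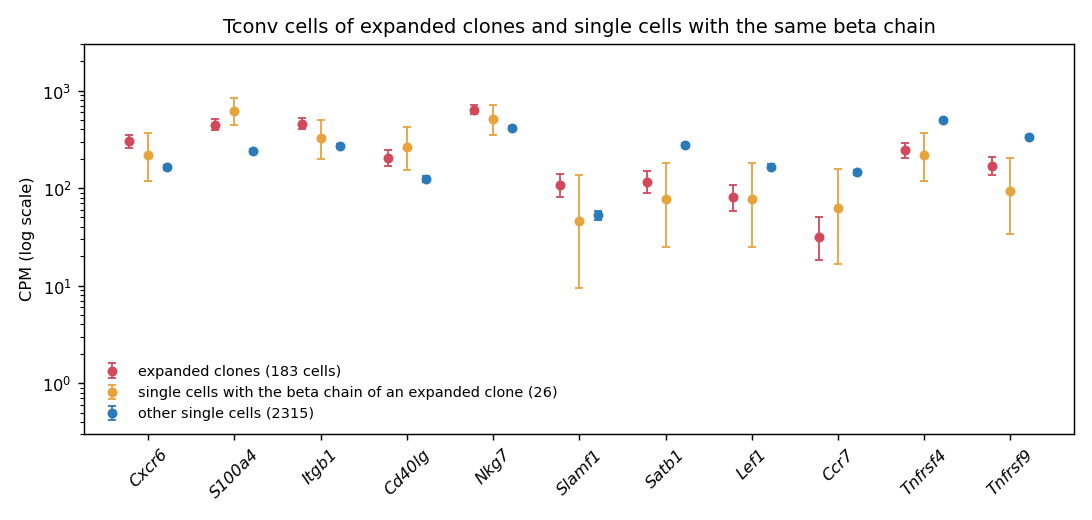
Points are CPM on a log scale for 11 genes in 183 members, in 26 single Tconv cells with the beta CDR3 of an expanded clone, and in the other 2315 single Tconv cells, with exact Poisson 95% intervals. For Satb1, Tnfrsf4 and Tnfrsf9 the 26 cells lie with the members, and for Slamf1 (46.4 CPM) the interval of the 26 cells covers both groups.

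Cell cycle and interferon-induced genes mostly had ratios a little above 1. Of 10 ranked cell cycle genes, 8 were above 1 and 3 at 1.5 or more, with a median of 1.25. Among all ranked genes, 60% were above 1 and 4.1% at 1.5 or more. Over the alternatives, Pclaf (1.67) ranged from 0.417 to 2.25 and Stmn1 (1.61) from 0.761 to 2.19, each above 1 in 17 of 18. Hmgb2, a chromatin protein of dividing cells, was at 881 CPM against 555 (1.59, 1.44 to 1.75) over 69 clones, while Mki67 had 21 UMIs in 14 clones (ratio 1.15, 0.697 to 1.80). Of 12 ranked interferon-induced genes, 4 were at 1.5 or more and none at 1/1.5 or less, with a median of 1.27. The UMIs of all 16 genes of that list summed to a ratio of 1.08 (1.04 to 1.12). Ifit3 was at 82.1 CPM against 43.2 (1.90, 1.35 to 2.62) and Irf7 at a ratio of 1.74 (1.34 to 2.25), with 18.2% and 13.0% of their UMIs in clonotype368, the clone with the cell of 269 myeloid UMIs. Without cells of 3 or more such UMIs, Ifit3 was at 2.04 and Irf7 at 1.54, and over cells with a Cd4 UMI the CPM ratio of Ifit3 was 0.776. Markers of invariant natural killer T cells, B cells and melanoma cells were scarce. The invariant alpha chain was found in 2 members (1.09%) and 57 single Tconv cells (2.43%). These shares are over all cells, of which 50 members and 837 single Tconv cells had only a beta chain. The 2 members made up clonotype281, which had no beta chain recovered, so that their clonotype rested on the alpha chain alone. Of 15 genes of innate-like T cells, 3 were ranked, with a median of 1.32. Of 6 B cell genes, Ighm was ranked, at a ratio of 0.572, and Cd79a and Ms4a1 had 0 UMIs in members. The 10 genes of melanoma cells and stroma summed to 41.1 CPM in members and 27.4 in single Tconv cells, none was ranked, and Pmel and Mlana had 0 UMIs in members.

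Few cells could be assigned to a tumor, since most had no hashtag UMI. Of the members, 12 carried only B16 tags and 0 only B16-IL33 tags, where 0 of 12 tagged cells allows up to 25%. Of the single Tconv cells, 221 carried B16 and 27 B16-IL33 tags (10.9% of 248, 7.30 to 15.4). With 12 tagged cells, a difference between tumors was not detectable in the members. The one clone with more than 1 tagged member, clonotype78, had 1 cell with each of the 2 B16 tags, and the tag names do not say what the tags of 1 tumor tell apart.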

How the data were processed

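One pool of sorted tumor T cells was measured. The authors deposited raw counts of UMIs per gene and barcode (Cell Ranger 3.1.0 by the file header, 6.1.1 in the submitters' processing notes, combined human and mm10 reference, no normalization), raw counts of UMIs per hashtag, and counts of UMIs per assembled TCR contig with clonotypes. The libraries shared 11756 hashtag and 6665 TCR barcodes with the 14035 gene expression barcodes, and 182 of 183 members were in all 3.

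Cells with 200 to 2500 detected mouse genes and under 5% mitochondrial UMIs were kept, as in the study's methods. Lineage came from each cell's own UMIs. The members and the 15 gene lists were chosen with earlier results of these data known. UMIs were summed per group in Python 3.11.15 (SciPy 1.17.1) and expressed as CPM, with exact Poisson, conditional binomial and Clopper-Pearson intervals at 95%. A count of 0 was read as up to 3. Since cells of 1 pool are not replicates, the report gives neither p-values nor standard errors, and genes are named by the size of the ratio: the 15 with the highest lower bound and the 15 with the lowest upper bound among those in at least 5 clones or 5% of single Tconv cells, and members of the lists. A few genes and clones are not reported here. Members had 1054 to 9370 UMIs per cell, with a median of 8 TCR UMIs. No doublet caller was run, and cells with 2 or more beta chains were left out as an alternative. Hashtags were called at 1 or more tag UMIs, all of 1 tumor. Coordinates are from GENCODE vM21 (GRCm38), which held 3171 of the 3174 ranked genes.

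The script was tested on simulated data for expanded over single Tconv cells, with 3174 genes. Of 100 genes simulated 2-fold higher and 100 simulated 2-fold lower, 95% and 100% had an interval that covered the simulated fold, and 95.7% of unchanged genes did. The simulated sums were Poisson draws, the model that the intervals assume, so this checks the code only. Clumping of UMIs in single cells or clones was not simulated, and the intervals do not cover it.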

Additional observations from a re-analysis of the deposited data

How the results depend on the processing

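No paired analysis was possible because the cells came from 1 pool, with no replicate numbers and no test. For the same reason no replicate could be left out, and leaving out the largest clone stood in its place. The share of Tconv cells in expanded clones was 13.1% with clones formed by the beta CDR3, V and J genes, 13.4% by the beta CDR3 alone, 8.89% over cells with an alpha and a beta chain, 5.36% over cells with a Cd4 UMI and 3.13% with a minimum of 3 cells per clone, and 6.56% to 7.79% in the 6 other alternatives. The number of genes at least 2-fold higher, 12 as reported, was 25 with clones by beta CDR3, V and J genes, 26 by beta CDR3 alone, 7 over cells with both chains, 7 without cells of 3 or more myeloid UMIs, 6 without cells with naive genes, 19 with each clone weighted equally, 48 at 10 expected UMIs, 4 at 50 and 130 at a fold of 1.5. The number at least 2-fold lower, 47 as reported, was 21 over cells with both chains, 23 with clones of 3 or more cells, 22 over cells with a Cd4 UMI, 31 without cells with Ikzf2 or Il2ra, 118 at 10 expected UMIs, 11 at 50, 149 at a fold of 1.5 and 21 after thinning to 1500 UMIs. Fewer members leave fewer genes to rank: 2411 with both chains, 1525 with clones of 3 or more cells, 1360 with a Cd4 UMI and 1543 after thinning, against 3174.

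Of 119 genes followed, 25 were past 2-fold, and 19 of these stayed on the same side of 1 in every alternative run. The exceptions were the CPM ratio of Lyz2 at 0.590 over cells with both chains, the CPM ratio of Gzma at 0.717 in clones of 3 or more cells, the CPM ratio of Ccl4 at 1.18 with a mitochondrial limit of 10%, the CPM ratio of Cd74 at 0.626 without cells of 3 or more myeloid UMIs, and, without cells with Ikzf2 or Il2ra, the CPM ratio of Cd74 at 0.370, the CPM ratio of H2-Aa at 0.194 and the CPM ratio of Tyrobp at 0.821. The cause was not tested. Over up to 18 alternatives, Cxcr3 ranged from 1.58 to 2.18, Cxcr6 from 1.40 to 2.22, Itgb1 from 1.36 to 2.11 and Ccr7 from 0.0556 to 0.330. Gzmb ranged from 0.269 to 1.85 and H2-Aa from 0.194 to 13.2. The alternatives without myeloid, Ikzf2 or Il2ra, or naive-gene cells, by beta CDR3 alone and at a fold of 1.5 were chosen after seeing the data.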
